A study of Mus musculus with 2 samples.

Results

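Lipoproteins carry triglyceride and cholesterol through the blood, and the liver makes most of their protein parts. The genes described here are the 10 apolipoprotein and lipoprotein assembly genes Apoa1, Apoa2, Apoa4, Apoa5, Apob, Apoc1, Apoc3, Apoe, Apoh and Mttp, chosen by symbol among the 27998 genes of the deposited tables. All 10 symbols were found, each once, and all 10 passed a floor of a mean of 10 CPM (UMIs per 1000000 UMIs of a class). They were followed by cell class, by liver zone and by the mitochondrial share of each barcode, in a Sox9HKO library (HKO) and a Sox9f/f library (WT). Both groups were C57BL/6 mice aged 12 weeks, and nuclear RNA came from liver taken 48 h after PHx (partial hepatectomy), in which part of the organ is cut away and the rest regrows. The Sox9f/f allele is Sox9 flanked by loxP sites. The labels do not spell out HKO and do not name the Cre driver, the number of animals or the part of Sox9 that is deleted. As each group is 1 library, differences have no replicate check, and neither tests nor p-values are given. The 95% intervals are exact ones for the UMI counts alone and leave out every other source of error.

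Apolipoprotein B is the single large protein that stays with a VLDL or LDL particle for its whole life, and the microsomal transfer protein encoded by Mttp loads it with lipid in the endoplasmic reticulum. Apolipoproteins A-I and A-II form the high-density particles, while the small C and E apolipoproteins move between particles and set how fast they are broken down or taken up. Hepatocytes transcribe these genes heavily, and the mature mRNAs lie in the cytoplasm, so nuclear preparations hold both nuclear transcripts and whatever cytoplasmic RNA comes with the nucleus or floats free in the droplet.

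There were 14912 barcodes with 61123904 UMIs in HKO and 14701 with 64609301 in WT, and the median per barcode was 3286 UMIs in HKO, against 3430 in WT. The libraries shared 70 barcode sequences. They stood apart in the joint clustering: of the 6 hepatocyte-like clusters, 3 held nuclei of HKO alone, 2 held nuclei of WT alone, and the last held 3 HKO and 1089 WT nuclei. Hepatocyte-like nuclei numbered 8669 in HKO and 8851 in WT. Another cluster, whose leading genes were those of haemoglobin and the mitochondria, was left unnamed; it held 21 HKO and 2591 WT barcodes and stays outside the class. Hepatocyte-like barcodes had a median mitochondrial share of 0.0742% in HKO, against 0.251% in WT. Sox9 had 219 UMIs (5.75 CPM) in HKO and 465 UMIs (11.3 CPM) in WT hepatocyte-like nuclei. Its 3′ tags check the deletion only if they lie in the deleted part, which the labels do not state.

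RNA of hepatocyte genes was present at a similar level in the 4 other cell classes measured, so the level in hepatocyte-like nuclei cannot be read as transcription in hepatocytes alone. The summed level of 15 hepatocyte markers in endothelial-like, macrophage-like, stellate-like and T/NK-like nuclei was between 80.3% and 94.6% of that in hepatocyte-like nuclei of HKO and between 88.9% and 106.6% of that in WT. None of the 15 markers was at 0 in these classes. Hepatocyte RNA in nuclei of other classes thus stands beside every member value below, and the part of free RNA in the differences between the libraries was not tested.

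In hepatocyte-like nuclei all 10 members were lower in HKO than in WT, and 6 of them were at least 2-fold lower (a log2 ratio of -1 or below): Apoc1, Apoe, Apoa2, Apoa1, Apoh and Apoc3. Apoa4, Apob, Apoa5 and Mttp did not reach that size. No member was higher in HKO. Over all 8415 genes that passed the floor, 4.37% were lower by that size and 2.95% were higher, and the median log2 ratio was 0.16, against -1.47 over the members. Median ratio size factors or TMM factors in place of class totals moved all ratios by -0.16, which kept every member lower and brought Apoa4 past 2-fold as well. With those factors the lower calls over all genes were 510 and 508, and the higher calls were 163 and 165, in place of 368 lower and 248 higher with class totals.

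Signs of RNA from red cells and of nuclear RNA also differed between the libraries in these nuclei. The unnamed cluster led by haemoglobin genes, with 2591 WT and 21 HKO barcodes, stays outside these nuclei because of those genes. The low haemoglobin level in WT is thus in part set by how clusters were named. Hba-a1, a haemoglobin chain, had 12.1 CPM in HKO against 0.56 CPM in WT, and the other 3 haemoglobin genes listed were 13.5-fold to 15.1-fold higher in HKO. Their summed level was 82.6 CPM in HKO against 1.51 CPM in WT at a mitochondrial share under 0.05%, and 3.32 CPM in HKO against 1.75 CPM in WT at 0.05 to 0.1%, a range in which the same 6 members were again at least 2-fold lower. Malat1, a nuclear RNA, was 1.33-fold higher in HKO and Neat1, another, 1.55-fold lower. Their part in the other differences was not tested.

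**Figure D1:**
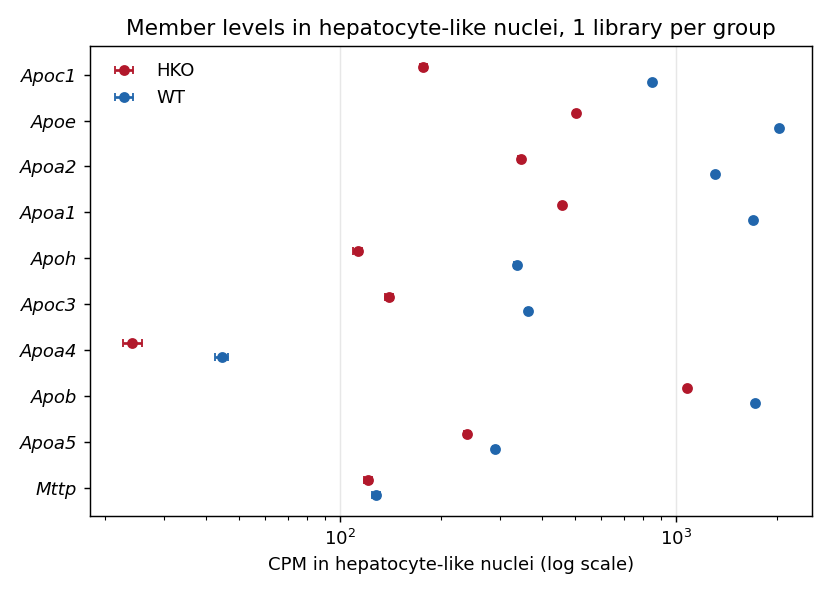
Level of each member in hepatocyte-like nuclei of HKO (red) and WT (blue), as CPM on a log scale, 1 library per group. Bars are exact 95% Poisson intervals, often smaller than the point; the gap between the libraries is widest for Apoc1 (177 CPM in HKO against 849 CPM in WT) and narrowest for Mttp (121 CPM in HKO against 128 CPM in WT).

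Of the apolipoproteins of high-density particles, Apoa1 encodes their main protein and lies at GRCm38 chr9:46228580-46230466 on the plus strand. Apoa1 stood at 457 CPM in HKO (451 to 464) and 1698 CPM in WT (1686 to 1711). It was 3.71-fold lower in HKO (3.65 to 3.78). Apoa2, which encodes the second protein of these particles, lies on chromosome 1 (chr1:171225054-171226379, plus strand) and stood at 345 CPM in HKO (339 to 351) and 1305 CPM in WT (1294 to 1316). It was 3.78-fold lower in HKO (3.71 to 3.85). The intervals of Apoa1 and Apoa2 were far apart between the libraries, and the sizes of the 2 differences lay close together although the genes are on different chromosomes.

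Apob lies at chr12:7977648-8016835 on the plus strand and has the longest exonic sequence of the members, 13934 bases. Its level was 1078 CPM in HKO (1068 to 1089) and 1723 CPM in WT (1710.3 to 1736), so it was 1.60-fold lower in HKO (1.58 to 1.62). Mttp, whose product hands lipid to apolipoprotein B, lies at chr3:138089854-138144968 on the minus strand. It stood at 121 CPM in HKO (118 to 125) and 128 CPM in WT (125 to 132), 1.06-fold lower in HKO (1.01 to 1.10). The intervals of Mttp met at 125 CPM, and its log2 ratio of -0.08 was nearest to 0 among the members. Apob and Mttp, the gene pair on which assembly of VLDL rests, had log2 ratios of -0.68 and -0.08, while Apoa1 and Apoa2 had -1.89 and -1.92.

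The 250 bases before the RefSeq start site (GRCm38.p6, plus strand) are shown for Apoa1 and Apoa2, which had like ratios, and for Apob, which had a smaller one. For Apoa1 and Apob that site lies inside the gene span given above, so distances depend on the start used. Capitals mark the forkhead core TGTTTNC and the TATA box TATAAA, each searched on both strands (GNAAACA and TTTATA on the other); no match overlaps another.
Apoa1, chr9:46228380-46228629: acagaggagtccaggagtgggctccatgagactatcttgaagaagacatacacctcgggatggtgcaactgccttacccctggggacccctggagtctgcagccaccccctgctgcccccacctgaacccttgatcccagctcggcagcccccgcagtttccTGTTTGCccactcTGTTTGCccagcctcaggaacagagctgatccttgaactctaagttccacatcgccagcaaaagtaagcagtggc
Apoa2, chr1:171224804-171225053: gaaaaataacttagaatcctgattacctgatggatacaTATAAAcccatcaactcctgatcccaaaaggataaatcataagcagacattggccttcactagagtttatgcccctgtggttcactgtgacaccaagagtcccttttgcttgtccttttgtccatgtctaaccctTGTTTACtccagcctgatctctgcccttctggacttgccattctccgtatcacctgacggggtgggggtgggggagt
Apob, chr12:7977427-7977676: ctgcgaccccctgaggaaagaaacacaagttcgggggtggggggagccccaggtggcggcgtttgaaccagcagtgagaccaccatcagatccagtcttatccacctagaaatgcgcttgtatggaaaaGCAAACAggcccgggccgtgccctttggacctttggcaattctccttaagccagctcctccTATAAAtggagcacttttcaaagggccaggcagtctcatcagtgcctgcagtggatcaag

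Apoa1 has TGTTTNC at 88 and 75 bases before the start, Apoa2 at 77 and Apob at 121, on the other strand. Of the 8 members in the RefSeq promoter table (all but Apoc1 and Apoc3), 5 have the forkhead core in this window (Apoa1, Apoa2, Apoa5, Apob and Apoh). It occurs in 17.8% of the table's 32851 promoters. TATAAA occurs in 12.4% of them and in 4 of the 8 members, at 60 bases before the start in Apob and at 212 in Apoa2. The 2 percentages are per promoter. The members were counted per gene, with a match in any of its promoters, and the 8 members have 12 promoters. The counts and the percentages are thus in unlike units. Members with the forkhead core include those with the larger and the smaller ratios, and a match of letters is no evidence that a factor binds there.

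Among the exchangeable apolipoproteins, Apoe encodes the ligand by which remnant particles are taken up by liver cells, and Apoc1 lies beside it on chromosome 7 (Apoe at chr7:19696109-19699188 and Apoc1 at chr7:19689481-19692660, both on the minus strand). Apoe stood at 503 CPM in HKO (496 to 510.3) and 2019.7 CPM in WT (2006 to 2034), 4.01-fold lower in HKO (3.95 to 4.08). Apoc1, whose product restrains lipid transfer and remnant uptake, stood at 177 CPM in HKO (173 to 181) and 849 CPM in WT (840.2 to 858). Its difference was the largest of the 10, at 4.80-fold lower in HKO (4.68 to 4.93). Apoc3, whose product slows the breakdown of triglyceride by lipoprotein lipase, lies at chr9:46232933-46235636 on the minus strand. It stood at 140.2 CPM in HKO (136 to 144) and 363 CPM in WT (357 to 369), 2.59-fold lower in HKO (2.51 to 2.67).

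Apoa4 and Apoa5 lie beside Apoa1 and Apoc3 in 1 gene cluster of chromosome 9. Apoa4 (chr9:46240696-46243459, plus strand) encodes an apolipoprotein known mainly from chylomicrons of the gut and induced in the fatty mouse liver. It had 917 UMIs in HKO and 1825 in WT, or 24.1 CPM in HKO (22.5 to 25.7) and 44.5 CPM in WT (42.4 to 46.5), a level 1.85-fold lower in HKO (1.70 to 2.001). Apoa5 (chr9:46268633-46271919, plus strand), whose product promotes the action of lipoprotein lipase, stood at 239 CPM in HKO (234 to 244) and 289.9 CPM in WT (285 to 295), 1.21-fold lower in HKO (1.18 to 1.24). The 4 genes of the cluster thus ran over log2 ratios of -1.89 (Apoa1), -1.37 (Apoc3), -0.87 (Apoa4) and -0.28 (Apoa5), in the order of their place along the chromosome. The annotation has genes on the other strand over Apoa4 and Apoa5, and no source used here says whether counting used strand, so these values may hold reads of those genes.

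Apoh encodes beta-2-glycoprotein I, a plasma protein that binds phospholipid and is found on several lipoproteins. It stood at 113 CPM in HKO (109.6 to 116) and 335 CPM in WT (329.8 to 341), 2.97-fold lower in HKO (2.87 to 3.07). Its annotated span, chr11:108343354-108414396 on the plus strand, overlaps Prkca on the other strand, and that of Mttp overlaps Trmt10a, so both values are uncertain in the same way. The span of Apoh also overlaps Gm11656, which is on the same strand. Across the genome, genes with a span under 5 kb had a median log2 ratio of -0.36 and 19.3% of these 492 genes were lower in HKO by 2-fold or more, against 2.25% of 2893 genes over 50 kb. The members in the first of these ranges are Apoa1, Apoa2, Apoa4, Apoa5, Apoc1, Apoc3 and Apoe, while Apoh and Mttp are in the last and Apob lies between. The part of span in the members' ratios was not tested.

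The share of nuclei with at least 1 UMI was set side by side after each nucleus was thinned to 2000 UMIs, which left 7682 HKO and 8769 WT hepatocyte-like nuclei and dropped 987 in HKO and 82 in WT. The share with Apoe was 59.6% in HKO (58.4% to 60.7%), against 97.8% in WT (97.4% to 98.1%), and unthinned it was 80.5% in HKO and 99.95% in WT. In T/NK-like nuclei, which should lack the transcript, the share with Apoe was 61.1% in HKO (52.6% to 69.1%), against 98.1% in WT (93.5% to 99.8%), and unthinned it was 73.9% in HKO and 99.1% in WT. The median depth before thinning was 3908 UMIs in HKO and 3907 in WT hepatocyte-like nuclei, and 1974 in HKO and 3341 in WT T/NK-like nuclei. Unthinned, the hepatocyte-like share was above the T/NK-like one, at unlike depth in HKO. Thinning left 144 T/NK-like nuclei in HKO and dropped 147, and it left 108 in WT and dropped 3. After thinning, the hepatocyte-like share was not above the T/NK-like one in either library, so it cannot be told apart from background. The share with Apoc1 was 29.0% in HKO against 82.5% in WT for hepatocyte-like nuclei, and 29.2% in HKO against 85.2% in WT for T/NK-like nuclei, so it too was not above the T/NK-like level.

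The members were also lower in HKO in the 4 other classes that held 100 nuclei or more in both libraries. Counting members at least 2-fold lower in HKO, 6 of 10 were so in macrophage-like nuclei (background 3.8%), and 7 of 10 in endothelial-like (4.52%), stellate-like (4.46%) and T/NK-like nuclei (6.84%), where Apoa4 joined the 6. Apoe stood at 529 CPM in HKO against 2414 CPM in WT endothelial-like nuclei, at 534 CPM in HKO against 1959 CPM in WT macrophage-like nuclei, and at 533 CPM in HKO against 2618 CPM in WT stellate-like nuclei. In T/NK-like nuclei it stood at 527 CPM in HKO against 2628 CPM in WT. The log2 ratio of Apoe in these 4 classes ran between -2.32 and -1.87, around its -2.004 in hepatocyte-like nuclei. Mttp kept a log2 ratio between -0.21 and -0.05 in the same 4 classes. Apoa4 varied most in the T/NK-like class, with a log2 ratio of -2.21 on 15 UMIs in HKO and 32 in WT, against -0.87 in hepatocyte-like nuclei.

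**Figure D2:**
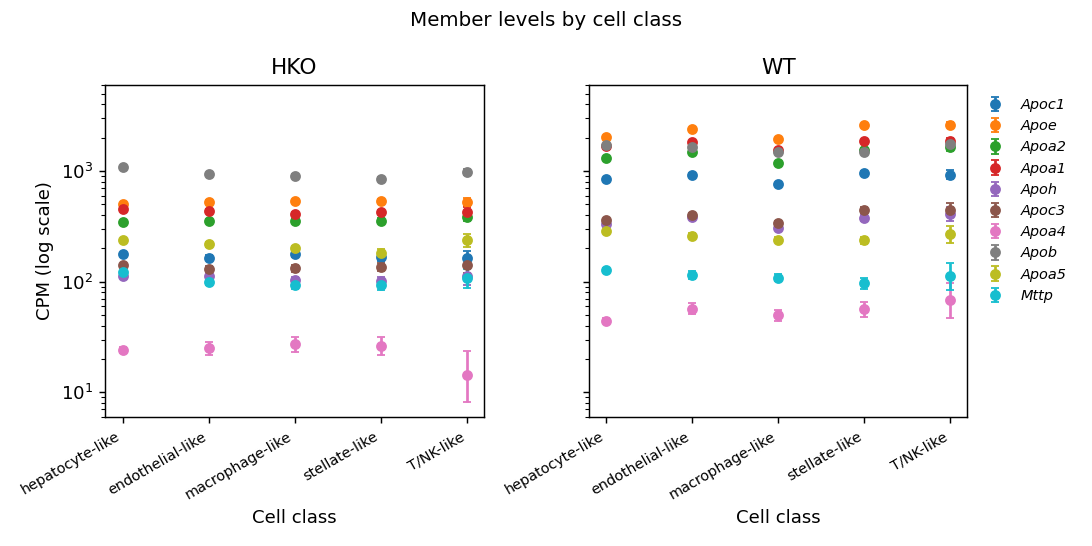
CPM (log scale) of the 10 members in 5 cell classes of the HKO library (left) and the WT library (right), with exact 95% Poisson intervals. Levels of a member are similar over the classes of a library, apart from Apoa4 (14.5 to 27.1 CPM in HKO and 44.5 to 68.9 CPM in WT); Apoe lies between 503 and 534 CPM in the HKO classes and between 1959 and 2628 CPM in the WT classes.

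Kupffer cells, the resident macrophages of the liver, are known to make apolipoprotein E, and so are stellate cells. Each member's level in a class was therefore divided by its hepatocyte-like level and by the same quotient of the summed hepatocyte markers, so that 1 stands for the level of the summed markers. For macrophage-like nuclei Apoe was at 1.24 in HKO (1.19 to 1.28), against 1.09 in WT (1.07 to 1.11). For stellate-like nuclei Apoe was at 1.32 in HKO (1.26 to 1.38) and 1.35 in WT (1.32 to 1.39). Classes not known for this transcript were above 1 as well. Endothelial-like nuclei had 1.19 in HKO (1.15 to 1.23) and 1.19 in WT (1.17 to 1.21), and T/NK-like nuclei 1.11 in HKO (1.02 to 1.21) and 1.22 in WT (1.15 to 1.29). The stellate-like intervals lay above these in both libraries, while the macrophage-like interval in WT lay below both. The highest of 15 single hepatocyte markers reached between 1.10 and 1.26 in the HKO classes and between 1.08 and 1.24 in the WT classes. Apoe lay above that marker by a small margin in each of these classes, except in endothelial-like nuclei of HKO. In HKO stellate-like nuclei Apoa2 (1.28) and Apoa4 (1.37) were above it as well, so the excess was not particular to Apoe or to macrophage-like and stellate-like nuclei. No member was at 2-fold or more, nor at 1.5-fold or more, in macrophage-like nuclei of both libraries. Mttp ran between 0.78 and 0.96 over the 4 classes and both libraries, and Apoa4, with few UMIs in T/NK-like nuclei, between 0.64 and 1.45. As UMIs of Apoe per 100 UMIs of the other 9 members, hepatocyte-like nuclei had 18.7 in HKO against 29.98 in WT, macrophage-like nuclei 22.1 in HKO against 32.5 in WT, and stellate-like nuclei 22.8 in HKO and 36.9 in WT. Endothelial-like nuclei had 21.3 in HKO against 33.8 in WT, and T/NK-like nuclei 20.4 in HKO against 35.1 in WT.

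The mitochondrial share of a barcode, taken here as a sign of cytoplasmic RNA, was used to set hepatocyte-like nuclei of the libraries side by side. HKO had 36.5% of its hepatocyte-like nuclei under a share of 0.05% and WT had 1.28%, so the lowest range rests on 113 WT nuclei. At a share under 0.05% the members made up 0.271% of UMIs in HKO and 0.706% in WT. At a share of 1 to 10% they made up 0.890% in HKO and 1.20% in WT. The same 6 members were at least 2-fold lower in HKO in each of the 4 ranges below 0.5%, where the share of all genes was 5.68% below 0.05%, 4.34% at 0.05 to 0.1%, 4.01% at 0.1 to 0.2% and 3.63% at 0.2 to 0.5%. From 0.5 to 1%, 4 members were (Apoa1, Apoa2, Apoc1 and Apoe, background 3.99%), and from 1 to 10% none of 10 was (background 5.82%), with 158 HKO and 172 WT nuclei. The median log2 ratio of the members ran from the lowest range to the highest over -1.35, -1.28, -1.24, -1.17, -0.81 and -0.34. These values leave out the unnamed cluster of 2591 WT and 21 HKO barcodes, whose median mitochondrial share in WT was 0.80%. With it joined to the hepatocyte-like nuclei, Apoa1, Apoc1, Apoe and Apoh were at least 2-fold lower in HKO in every range. The smaller ratios at high shares thus depend on which barcodes are in the class. The share of all genes that were lower by that size in every range was not computed.

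**Figure D3:**
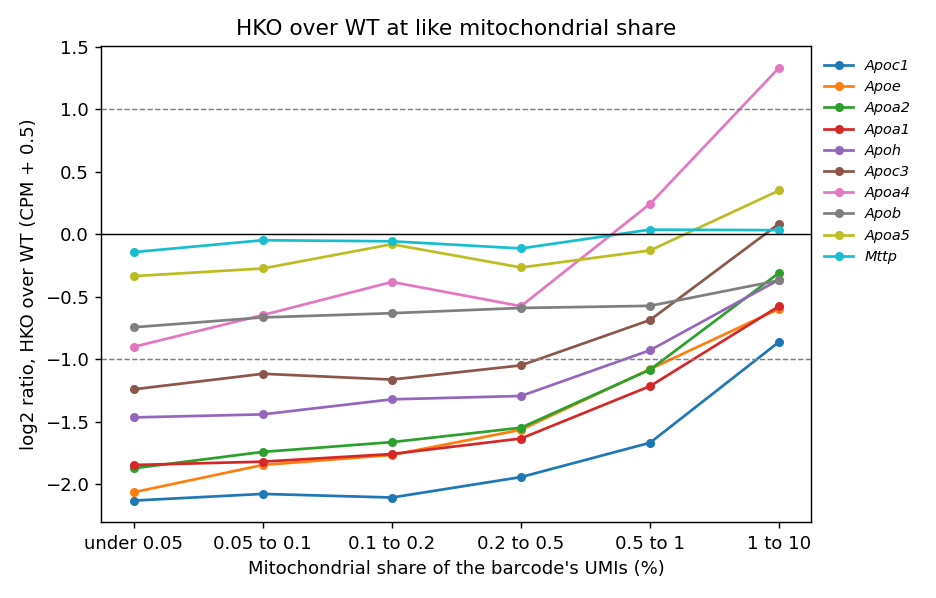
The log2 ratio of HKO over WT for each member (CPM + 0.5) in hepatocyte-like nuclei, by range of mitochondrial share; dashed lines mark 2-fold in either direction. The lines of the 6 members with the lowest ratios stay at or below -1.05 up to a share of 0.5% and lie between -0.86 and 0.08 at 1 to 10%. The unnamed cluster, mostly of WT barcodes, is left out.

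Apoe shows the pattern in levels. In HKO it stood at 354 CPM below 0.05%, 399 CPM at 0.05 to 0.1%, 501 CPM at 0.1 to 0.2%, 737 CPM at 0.2 to 0.5%, 1269.5 CPM at 0.5 to 1% and 2279 CPM at 1 to 10%. In WT the same ranges gave 1483, 1435, 1706, 2183, 2684 and 3446 CPM. HKO was below WT in each range, and HKO at 1 to 10% was above WT at 0.1 to 0.2%. From the lowest range to the highest, Apoe was 6.44-fold higher in HKO (6.06 to 6.84) and 2.32-fold higher in WT (2.16 to 2.50).

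The other members differed in how strongly they went with the mitochondrial share. Apoa4 was 12.1-fold higher in the highest range than in the lowest in HKO (9.45 to 15.5) and 2.52-fold in WT (1.43 to 4.66). Apoa2 was 5.69-fold higher in HKO and 1.92-fold in WT, and Apoh 4.52-fold in HKO and 2.10-fold in WT. Apoc1, Apoa1 and Apoc3 lay between 3.97-fold and 4.28-fold in HKO and between 1.58-fold and 1.77-fold in WT. Apob had 1.49-fold in HKO and 1.15-fold in WT. Apoa5 had 1.58-fold in HKO (1.37 to 1.82) and 0.98-fold in WT (0.80 to 1.20), and the interval of Mttp held 1 in both libraries. Past 2-fold were 7 of 10 members in HKO, where 4.25% of all genes were, and 3 of 10 in WT (Apoe, Apoa4 and Apoh), where 3.97% were. Across the 10 members the log2 gradient in HKO and in WT had r = 0.96, and the WT gradient and the HKO over WT ratio had r = -0.71, a description over 10 genes that share libraries and depth.

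**Figure D4:**
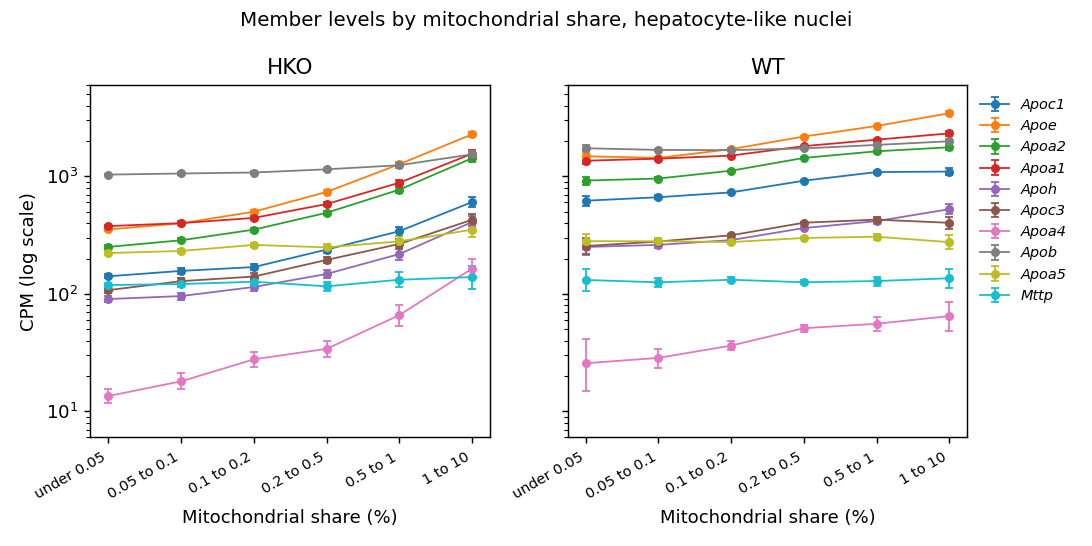
CPM (log scale) of each member by range of mitochondrial share in hepatocyte-like nuclei of HKO (left) and WT (right), with exact 95% Poisson intervals. Apoe lies between 354 and 2279 CPM in HKO and between 1435 and 3446 CPM in WT, while Mttp lies between 116 and 139 CPM in HKO and between 125 and 136 CPM in WT.

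In the highest range Apoa4 had the opposite direction, with 164 CPM in HKO (133 at its lower bound) and 64.8 CPM in WT, a log2 ratio of 1.33 where 7.25% of all genes were higher by 2-fold or more. It rests on 51 UMIs in WT. In that range Apoa5 had a log2 ratio of 0.35, and the intervals of Apoc3 and Mttp held 1, with log2 ratios of 0.08 and 0.03. When the WT nuclei were weighted to the mitochondrial shares of HKO, the same 6 members stayed at least 2-fold lower in HKO, where 4.05% of all genes were. Their log2 ratios were then -2.01 (Apoc1), -1.73 (Apoe), -1.71 (Apoa1), -1.63 (Apoa2), -1.33 (Apoh) and -1.09 (Apoc3), and Apoa4 had -0.45. This weighting was chosen after the data were seen.

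Hepatocytes differ along the axis from portal vein to central vein, and fat and lipoprotein handling is known to be zoned. Hepatocyte-like nuclei were ordered within each library by periportal against pericentral transcripts that are not members and cut into 3 equal groups, of 2704 to 2705 nuclei in HKO and 2937 to 2938 in WT. The groups divided independent zone genes as known for 7 of 7 pericentral and 7 of 7 periportal genes in HKO, and for 7 of 7 pericentral and 6 of 7 periportal genes in WT, where Serpina1c was the exception. As 3723 HKO and 3171 WT nuclei lay within 5 points of a limit, the groups are ranges and not types. The median mitochondrial share was 0.0665% periportal and 0.0806% pericentral in HKO, and 0.246% periportal and 0.258% pericentral in WT.

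The members differed little along this axis. Apoa5 stood at 254 CPM periportal and 212 CPM pericentral in HKO, 1.20-fold higher periportal (1.14 to 1.26), and at 303 CPM periportal and 273 CPM pericentral in WT, 1.11-fold higher (1.06 to 1.16). Apob was 1.08-fold higher periportal in both libraries, with intervals of 1.05 to 1.11 in HKO and 1.06 to 1.10 in WT. Apoa4 was at 1.04 in HKO and 1.11 in WT, with intervals that held 1. Apoe went the other way, with 454 CPM periportal and 575 CPM pericentral in HKO, a fold of 0.79 (0.76 to 0.82), and with 1899 CPM periportal and 2187 CPM pericentral in WT, a fold of 0.87 (0.85 to 0.88). Apoc1, Apoa2, Apoa1 and Apoh were also lower periportal in both libraries, with folds of 0.80 to 0.87 in HKO and 0.87 to 0.92 in WT. Apoc3 had 1.03 in HKO (0.97 to 1.11) and 0.94 in WT (0.91 to 0.98), and Mttp 1.05 in HKO (0.97 to 1.13) and 0.94 in WT (0.88 to 1.001). Across the 10 members the log2 folds of the libraries had r = 0.82, as a description.

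**Figure D5:**
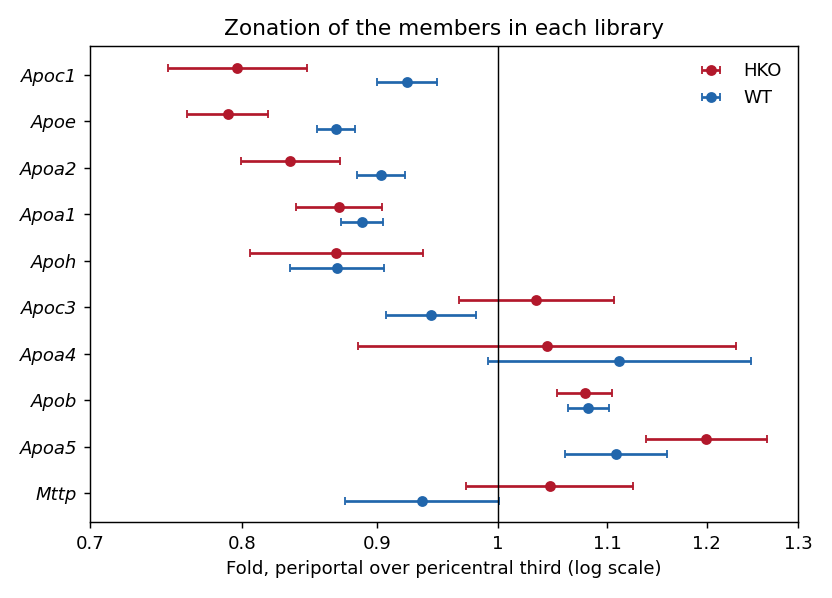
Fold of the periportal over the pericentral group of hepatocyte-like nuclei for each member (log axis), in HKO (red) and WT (blue), with exact 95% intervals of the counts. Apoc1, Apoe, Apoa2, Apoa1 and Apoh lie below 1 in both libraries and Apob and Apoa5 above 1 in both.

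Within ranges of mitochondrial share the lower periportal level of Apoe and Apoa1 was lost in 1 of 4 settings, that of HKO nuclei under 0.1%. There the intervals of Apoa2 (fold 1.01), Apoh (1.03) and Apoc1 (0.93) held 1 as well. For Apoh the interval also held 1 at 0.1 to 0.5% in HKO (0.78 to 1.01) and under 0.1% in WT (0.76 to 1.01). Under 0.1% Apoc3 went in opposite directions, with 1.23 in HKO (1.12 to 1.35) and 0.79 in WT (0.69 to 0.91). Among nuclei with a share under 0.1%, Apoe in HKO had a periportal over pericentral fold of 0.97 (0.92 to 1.03) and Apoa1 0.99 (0.94 to 1.04), whereas in WT Apoe had 0.85 (0.80 to 0.90) and Apoa1 0.87 (0.82 to 0.92). At a share of 0.1 to 0.5% Apoe had 0.88 in HKO (0.83 to 0.93) and 0.90 in WT (0.88 to 0.92), and Apoa1 0.93 in HKO (0.87 to 0.99) and 0.90 in WT (0.89 to 0.92). Under 0.1% Apoa5 had 1.30 in HKO (1.21 to 1.39) and 1.20 in WT (1.05 to 1.38), and Apob 1.09 in HKO (1.05 to 1.12) and 1.11 in WT (1.05 to 1.18), so both remained higher periportal. The difference between the libraries was present in each zone group as cut within its library. The limits lay at periportal shares of 75% and 89.7% of zone UMIs in HKO and of 57.1% and 75.8% in WT. Groups of the same name thus had unlike zone scores in the 2 libraries. Members at least 2-fold lower in HKO numbered 6 of 10 pericentrally (background 3.93%), 7 of 10 in the middle group (5.04%) and 6 of 10 periportally (4.96%).

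Apoe and Apob differed less between the hepatocyte-like clusters of a library than between the libraries. In HKO Apoe stood at 630.0 CPM in the cluster led by pericentral genes such as Slc22a3 and Glul, 492 CPM in the main cluster and 481 CPM in the cluster led by cell cycle genes. In WT it stood at 1973 CPM in the cluster with pericentral leading genes, 2159 CPM in that with periportal ones and 1849 CPM in the cycling one. The pericentral and periportal WT clusters are thus in the reverse order of the WT zone groups for Apoe. Their median mitochondrial shares were 0.227% and 0.287%, and the reason for the reverse order was not tested. Apob was lowest in the cycling cluster of each library, at 918 CPM in HKO and at 1562 CPM in WT; it stood at 1050.3 to 1093 CPM in the other HKO clusters and 1680.2 to 1852 CPM in the other WT clusters. For Apoa5 the clusters of a library were further apart than the libraries, at 183 to 247 CPM over the HKO clusters and 236 to 325 CPM over the WT clusters, and for Mttp they ran over 112 to 122 CPM in HKO and 122 to 133 CPM in WT.

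Among other genes of the lipoprotein pathway more were lower than higher in HKO. Of 61 other genes listed, 51 passed the floor, and 12 of them were at least 2-fold lower and 2 at least 2-fold higher in HKO, with a median log2 ratio of -0.39 beside 0.16 over all genes. Over all genes 4.37% were lower and 2.95% higher by that size, so the count of higher genes is near its background. The same shares stand beside the counts in each smaller group of this list below. The members' median was -1.47. Among other apolipoproteins 6 of 11 were lower. Saa2 and Saa1, acute-phase proteins carried on high-density particles, stood at 668 CPM and 1036 CPM in HKO and at 5118 CPM and 5249.7 CPM in WT, and are near-identical copies whose reads may have been split between them. Apom, which carries sphingosine-1-phosphate on these particles, had 24.4 CPM in HKO against 109.1 CPM in WT. Apof had 54.3 CPM in HKO against 159 CPM in WT, Apon 32.2 CPM in HKO against 72.7 CPM in WT, and Apoc4 117 CPM in HKO against 262 CPM in WT. Saa4, Pon1 and Apol9b had log2 ratios of -0.69, -0.71 and -0.68.

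Genes of assembly and secretion in the endoplasmic reticulum stood nearer to Mttp than to the apolipoproteins. Their median log2 ratio was -0.11, and of 16 genes only Sort1, a sorting receptor that binds apolipoprotein B, was at least 2-fold lower, at 22.1 CPM in HKO against 56.8 CPM in WT. A1cf, a cofactor of Apob mRNA editing, had 489 CPM in HKO against 719 CPM in WT. Sec24d, a coat protein of vesicles leaving the endoplasmic reticulum, had 311 CPM in HKO against 272 CPM in WT, and Pdia3, a folding enzyme, 289.5 CPM in HKO against 181 CPM in WT.

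Of 8 lipases, transfer proteins and plasma enzymes, Aadac (57.6 CPM in HKO against 136 CPM in WT), a lipid hydrolase of the endoplasmic reticulum, and Pltp (6.59 CPM in HKO against 14.1 CPM in WT), the phospholipid transfer protein, were lower. Lipc, hepatic lipase, had 302 CPM in HKO against 481 CPM in WT. Ces1d had 165 CPM in HKO against 157 CPM in WT, and Lcat, which esterifies cholesterol on high-density particles, 60.2 CPM in HKO against 91.0 CPM in WT.

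The regulators of lipoprotein lipase differed in direction. Angptl4, an inhibitor of the lipase induced in fasting, had 60.6 CPM in HKO against 8.21 CPM in WT, 7.39-fold higher in HKO (6.59 to 8.30). Angptl8, induced by feeding, had 34.7 CPM in HKO against 96.8 CPM in WT, 2.79-fold lower in HKO (2.62 to 2.97).

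Among the receptors, Cd36, a fatty acid transporter that hepatocytes share with endothelial cells and macrophages, had 23.5 CPM in HKO against 9.45 CPM in WT. Lrp1 and Scarb1, receptors for lipoproteins, had log2 ratios of -0.50 and -0.19. Of 4 efflux genes only Abcg8, a subunit of the sterol exporter of the bile canaliculus, was lower by 2-fold, at 55.3 CPM in HKO against 119 CPM in WT, while its partner Abcg5 had 64.8 CPM in HKO against 77.3 CPM in WT. Abca1, which lipidates apolipoprotein A-I, had 337 CPM in HKO against 495 CPM in WT, and Abcb4, the phospholipid exporter, 437 CPM in HKO against 406 CPM in WT.

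Transcription factors known to act on liver apolipoprotein genes had a median log2 ratio of 0.21 over 23 genes, with 3 lower and 3 higher in HKO by 2-fold. Over all genes 4.37% were lower and 2.95% higher by that size. Hnf4a, a main activator of apolipoprotein genes, had 413 CPM in HKO against 287 CPM in WT. Cebpa had 13.7 CPM in HKO against 14.8 CPM in WT and Foxa2 26.6 CPM in HKO against 32.5 CPM in WT. Foxo1, which drives transcription of Mttp and Apoc3 when insulin signalling is low, had 519 CPM in HKO against 185 CPM in WT. Its coactivator Ppargc1a had 135 CPM in HKO against 63.5 CPM in WT, and Foxa3 had 185 CPM in HKO against 90.4 CPM in WT. With either size factor Foxa3 and Ppargc1a fall under 2-fold. Nr0b2, a repressor induced by bile acids, had 5.72 CPM in HKO against 78.8 CPM in WT, 13.8-fold lower in HKO (12.0 to 15.9). Srebf1, the activator of fatty acid synthesis, had 40.9 CPM in HKO against 93.4 CPM in WT, and Nr1d1, a clock repressor, 13.7 CPM in HKO against 28.5 CPM in WT.

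The lower level was shared with other abundant hepatocyte transcripts. Of 20 such genes, most of them for secreted plasma proteins, 15 were at least 2-fold lower and none was higher, with a median log2 ratio of -1.53. Over all genes 4.37% were lower and 2.95% higher by that size. Alb had 2539.6 CPM in HKO against 5962 CPM in WT, Ttr 434 CPM in HKO against 1534 CPM in WT, and Fabp1, a fatty acid binding protein of the cytosol, 83.4 CPM in HKO against 566 CPM in WT. Over 29 sums by library, mitochondrial range and zone, the genes that went most closely with the mean of the members were Hp, Orm1, Trf, Hpx and Lrg1, among 3708 genes with at least 50 CPM, with r between 0.995 and 0.997. The sums share library and depth, and 16 came from HKO and 13 from WT. Within HKO, Apoa2, Apoe, Apoa1, Apoh, Apoc3 and Apoc1 went with the mean of the other members at r of 0.97 to 0.99, and Apoa5 and Mttp at 0.78 and 0.59. Within WT, Apoa5 had r = 0.07 and Mttp r = 0.40.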

How the data were processed

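The deposited values are raw counts of UMIs per gene and barcode (10x 3′ chemistry), 1 library per group, grouped by sample title. The submitters' processing notes name Cell Ranger 5.0.0, Seurat 3.2.0, STAR and the build GRCm38, without saying what each did. How nuclei were isolated and whether counting used strand are not given in the sources used here. All barcodes had at least 500 genes, and those with 10% or more mitochondrial UMIs were left out (10 HKO and 186 WT). No doublet caller was run.

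Nuclei of the libraries were clustered jointly, with no correction for library (scanpy 1.11.5, leidenalg 0.10.2, 2000 variable genes, of which members were left out, 30 components, 15 neighbours, resolution 0.5). Clusters took the class with the highest mean log2 ratio of its markers over the other nuclei, with at least 3 detected. In the hepatocyte-like clusters this ratio was -0.09, -0.04 and -0.23 in WT and 0.16, 0.13 and -0.17 in HKO. Hepatocyte markers were thus not raised in all of them, and none was among their leading genes. The unnamed cluster had a hepatocyte ratio of 0.56. That markers were scored within the library holding most of the cluster, and that a class needed at least 0.5 of its markers at 20 CPM in some cluster, was set after the data were seen. Within a class the counts of a library were added up and expressed as CPM. A ratio is log2 (HKO CPM + 0.5) minus log2 (WT CPM + 0.5), the floor was a mean of 10 CPM, and a difference was called at a log2 size of 1. Intervals are exact at 95% (Poisson for levels, conditional binomial for folds, Clopper-Pearson for shares); UMIs of free RNA are not independent of the droplet, so they cover counting error only. Zones used nuclei with at least 10 zone UMIs (555 HKO and 38 WT nuclei left out).

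The members and lists were chosen with earlier results of these data known. Named genes were the members, the wider pathway genes past the size of 1 and up to 3 more per role with the highest level, regulators past that size with Hnf4a, Cebpa and Foxa2, Alb, Ttr and Fabp1, the 5 genes most like the members, and Sox9; a few genes under this rule are not reported here. Coordinates come from GENCODE vM21 (GRCm38, 27722 of 27998 identifiers matched) and promoters from RefSeq. The calculation was tested on simulated counts. Alternatives covered scaling (TMM in edgeR 4.0.16), filters, depth, resolution, floors and zone cuts.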

Additional observations from a re-analysis of the deposited data

Results flagged for a closer look

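Barcodes outside the comparison held a larger share of member UMIs than hepatocyte-like nuclei of the same library (0.320% in HKO and 0.876% in WT). In the unnamed cluster led by haemoglobin and mitochondrial genes the members made up 2.73% of UMIs in HKO (21 barcodes) and 1.87% in WT (2591 barcodes). Among barcodes over the mitochondrial limit they made up 3.02% in HKO (10 barcodes) and 3.66% in WT (186 barcodes). In the unnamed cluster Apoe stood at 8154 CPM in HKO against 5496 CPM in WT, while Mttp stood at 96.8 CPM in HKO (5 UMIs) and 126 CPM in WT, near its hepatocyte-like level in each library. The barcodes of that cluster had a median mitochondrial share of 5.53% in HKO and 0.80% in WT. The libraries are thus not set side by side at like share there.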

How the results depend on the processing

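The 6 members at least 2-fold lower in HKO kept that size in each of the 13 alternatives run for the comparison, 3 of them chosen after the data were seen, with a count of 6 or 7 members. Apoa4 ran between -1.15 and -0.45 on the log2 scale and passed the size in 4. The count of all genes lower in HKO, 368, was 580 with a floor of 1 CPM and 174 with a floor of 50 CPM, which test 12936 and 3717 genes. The 2 wider pathway genes higher in HKO were 0 with the floor of 50 CPM, which neither Angptl4 nor Cd36 passes. No member was at least 2-fold lower in every range of mitochondrial share. With the unnamed cluster joined to the hepatocyte-like nuclei 4 were (Apoa1, Apoc1, Apoe and Apoh). At a clustering resolution of 1 there were 4 as well (Apoa1, Apoa2, Apoc1 and Apoe). No share of all genes was computed beside these counts. By the direction of the fold alone, members higher periportally in both libraries numbered 3 (Apoa4, Apoa5 and Apob), and the intervals of Apoa4 held 1. Over all genes the median log2 fold was -0.008 in HKO and 0.004 in WT. The share of all genes higher periportally in both libraries was not computed. At resolution 1 only Apoa5 was counted, and an HKO cluster led by haemoglobin genes of 3219 nuclei left the class. The cause was not tested. No paired analysis was possible because each group has 1 library. Depth limits Apoa4 most, with 17 UMIs in the lowest WT range.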
